A study of Mus musculus with 16 samples.

Results

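Cell cycle entry from G1 is held back by CDK inhibitors and pocket proteins, and 8 genes of these families were followed in haematopoietic stem cells (HSCs): the Cip/Kip inhibitors Cdkn1a (p21), Cdkn1b (p27) and Cdkn1c (p57), the INK4 inhibitors Cdkn2c (p18) and Cdkn2d (p19), and the pocket proteins Rb1 (pRb), Rbl1 (p107) and Rbl2 (p130). They were chosen by name, as known regulators of quiescence, and they are 8 of the 46078 genes in the count table. The data are RNA-Seq libraries of HSCs, sorted as live LSK CD48-CD150+ cells, 30 to a pool, from C57/Bl6 mice that received no treatment. The HSCs came from the bone fraction (endosteal BM) or the marrow fraction (central BM) of the long bones of WT or Gfra2-/- mice. Gfra2-/- mice lack GFRα2, a receptor that cholinergic neurons need to survive, and the deletion is not limited to HSCs or to the niche. The libraries used were 4 endosteal and 4 central WT libraries, and 4 endosteal and 3 central libraries labelled Gfra2-/-. The labels give no age or sex and tie no library to 1 mouse, so p-values measure the spread between these pools, which may be technical. The study describes its comparison of these HSCs as having 4 biological replicates. Its methods speak of 4 replicates per sample and of 3 sequenced per condition. The libraries of a group are lettered in the order of the table.

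Cip/Kip inhibitors bind complexes of cyclins with CDK2 or CDK4/6, whereas INK4 inhibitors bind CDK4 and CDK6 themselves and keep D-type cyclins away from them. The kinases phosphorylate the pocket proteins, which in their unphosphorylated form hold E2F transcription factors and keep S phase genes off. Rbl2 is the pocket protein typical of resting cells and, with E2F4 and the MuvB core, forms the DREAM complex, Rbl1 is typical of cycling cells and is itself an E2F target, and Cdkn1c is known for its part in the quiescence of adult HSCs.

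Promoter sequence is shown for the pair of pocket proteins that differed most between the genotypes and for Cdkn1a, the member with the most libraries at 0 counts. The RefSeq promoter table (build GRCm38.p6) held 6 of the 8 members, all except Cdkn1c and Rb1. Positions are counted back from the RefSeq start, whose preceding base is -1, and capitals mark a match to an E2F motif in Rbl1 and to a p53 half-site in Cdkn1a.
Rbl1 (chr2:157204535-157204654, minus strand): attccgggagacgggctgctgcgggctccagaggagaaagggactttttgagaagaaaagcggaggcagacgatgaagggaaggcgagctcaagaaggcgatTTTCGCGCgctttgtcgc
Rbl2 (chr8:91069937-91070056, plus strand): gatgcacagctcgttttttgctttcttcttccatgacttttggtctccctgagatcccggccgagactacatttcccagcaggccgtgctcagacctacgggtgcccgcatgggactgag
Cdkn1a (chr17:29090859-29090975, plus strand, upstream start): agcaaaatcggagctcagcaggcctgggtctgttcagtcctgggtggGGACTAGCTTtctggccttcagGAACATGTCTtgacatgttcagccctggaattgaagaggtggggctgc
Both strands of the 250 bases before each start were searched. The E2F motif TTTCGCGC lay at -18 to -11 of Rbl1 and in 0.256% of 32851 promoters, and any of TTTCCCGC, TTTCGCGC, TTTGCCGC and TTTGGCGC lay in 1.86% of them. Among the 6 members, only Rbl1 held one of these 4 motifs in this window. A p53 half-site was found in 7.13% of promoters, at -73 to -64 and -51 to -42 of Cdkn1a and at -102 to -93 of Cdkn2d. The FoxO motif GTAAACA was in 3.17% of promoters, and none of the 6 members held these letters in this window.

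Depth was between 826487 and 18550008 gene-assigned reads a library, and every central WT library was shallower than all others, at most 3367289 reads. Central WT libraries A and C were below a read limit of 1500000, applied here to gene-assigned reads. The study set this number for uniquely mappable reads, so both libraries may have passed its own cut-off. The spike-in share was under 0.5% in 4 libraries, 1 of each group. Gfra2 itself had 1 count in 1 endosteal and 4 counts in 1 central WT library and was at 0 counts in the other 6, whereas endosteal libraries A to D labelled Gfra2-/- had 2, 47, 1 and 9 counts and central ones 0, 1 and 0. Endosteal libraries B and D labelled Gfra2-/- were thus above a limit of 5 raw counts, which ignores depth. Library B, with 47 counts, was the deepest of the series, and central WT library C, with 4 counts, the shallowest. As 6 WT libraries had 0 counts as well, Gfra2 counts cannot check the genotype label. Fits without these libraries B and D are given below. Defining HSC genes were present in each group, with a sum of 8 markers between 1630 and 3537 CPM (gene counts relative to the TMM-normalized library size). Of 5 lymphoid markers, the sum was 2061 CPM in endosteal library D labelled Gfra2-/-, 321 and 427 CPM in central libraries B and C with that label and 153 CPM in central WT library D, with Ighm among them. It was at most 53.6 CPM in the other libraries. Mature haematopoietic cells were depleted before the sort and the gate was lineage-negative, with B220 and CD3e in the study's lineage panel. Library D of the central WT group also stood apart in 7 myeloid markers (1662 CPM, at most 27.3 CPM in every other library). The sum of 7 erythroid markers reached 660 CPM in the endosteal group labelled Gfra2-/-, whose median was 57.8 CPM, and at most 142 CPM in the other groups. The sum of 5 megakaryocyte markers reached 620 CPM in the same group (median 144 CPM) and at most 435 CPM in the others. In a pool, fewer cells that express a gene and less RNA per cell cannot be told apart.

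Per kilobase of exon, Cdkn2d was the most abundant member, with a median of 27.5 CPM per kb over the 15 libraries. Rbl1, Cdkn1c and Rbl2 followed at medians of 13.2, 12.1 and 11.1 CPM per kb, then Cdkn1b at 5.90, Rb1 at 4.48, Cdkn2c at 2.71 and Cdkn1a at 0. Neighbours in this order were often within their spread: Rbl1 was above Cdkn1c in only 7 of 15 libraries and Cdkn1c above Rbl2 in 7 of 15, while Cdkn2d was above Rbl1 in 12. The order was not the same in each group. In central WT HSCs Cdkn1c led, at a median of 30.2 CPM per kb, and Rbl2 was sixth of the 8 at 4.17, whereas in central HSCs labelled Gfra2-/- Rbl2 was second, at 16.7 CPM per kb. Ranks of the pocket proteins depended on the length used. In central WT HSCs the means of Rbl2, Cdkn1b and Rb1 were 4.14, 5.23 and 4.89 CPM per kb of exon. With the longest transcript they were 6.35, 5.23 and 6.31. Over all 15 libraries the means of Rbl2 and Rbl1 were 11.5 and 14.1, and 17.7 and 17.4 with the longest transcript.

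**Figure D1:**
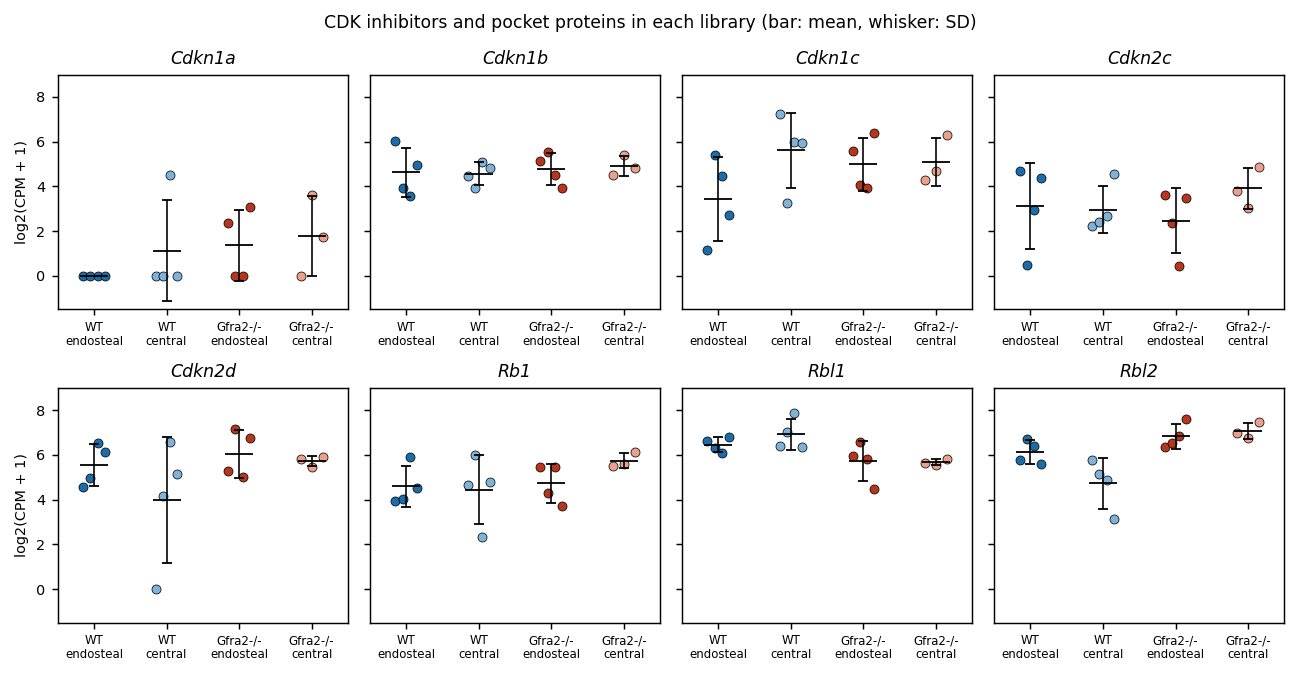
Level of each member on the vertical axis, as log2(CPM + 1), in 4 groups of libraries. Each point is 1 library, the bar is the mean and the whisker the SD. Rbl2 is the member whose libraries lie highest in the Gfra2-/- groups, Rbl1 is lower there, and Cdkn1a is at 0 in 10 of 15 libraries.

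Rbl2 (ENSMUSG00000031666, chromosome 8, 91070057 to 91123844 of GRCm38) was higher in each central library labelled Gfra2-/- than in any central WT library. Its level in endosteal WT libraries A to D was 54.3, 105, 83.7 and 46.6 CPM, and in central WT libraries 54.3, 34.8, 28.2 and 7.75 CPM. Endosteal libraries labelled Gfra2-/- had 79.9, 91.8, 115 and 194 CPM, and central ones 126, 108 and 177 CPM. The endosteal groups overlapped. In central HSCs mean levels were 137 ± 35.9 CPM (SD, n = 3) under the Gfra2-/- label and 31.3 ± 19.2 CPM (SD, n = 4) for WT. The log2 fold change was 2.12, with a standard error (SE) of 0.67. Rbl2 did not pass a 10% FDR over all genes tested in that comparison (FDR = 0.360 from edgeR, unadjusted p = 0.00799). In endosteal HSCs the log2 fold change was 0.74 (SE 0.41, FDR = 0.767 from edgeR), and 0.39 without library D labelled Gfra2-/-. Over both compartments it was 1.38 (SE 0.41, FDR = 0.148 from edgeR, unadjusted p = 0.00302). Some of its reads may belong to Aktip, which overlaps its locus on the other strand, since counting ignored strand.

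Calls for Rbl2 depended on the test and on the libraries. DESeq2 called it higher in central libraries labelled Gfra2-/- (log2 fold change 2.01, FDR = 0.0906 from DESeq2) and over both compartments (1.34, FDR = 0.0279 from DESeq2), and edgeR called it over both compartments among genes with at least 10 counts in every library (1.49, FDR = 0.0615 from edgeR). Its 2 highest libraries, endosteal D and central C labelled Gfra2-/-, were also those with the 2 highest lymphoid sums, and both are among the libraries with a low spike-in share. Central WT library D, also above 100 CPM of lymphoid markers and low in spike-in share, had the lowest Rbl2 of all 15 libraries, 7.75 CPM. Central library B labelled Gfra2-/-, with a lymphoid sum of 321 CPM, had 108 CPM of Rbl2, the lowest of its group. Without the 4 libraries above 100 CPM of lymphoid markers, the log2 fold change over both compartments was 0.85 (SE 0.43, FDR = 0.456 from edgeR), and with only the 11 libraries of a higher spike-in share 0.86 (SE 0.41, FDR = 0.471 from edgeR). In central HSCs these values were 1.63, with 1 library labelled Gfra2-/- left, and 1.53. The part of other cell types in this difference was not tested. Without endosteal libraries B and D labelled Gfra2-/-, those above 5 Gfra2 counts, Rbl2 was at 0.42 (SE 0.49) in endosteal HSCs. Over both compartments Rbl2 was then at 1.48 (SE 0.49, FDR = 0.279 from edgeR). Depth moved with this difference as well, as the central WT libraries were the shallowest. With counts thinned to the smallest library its central log2 fold change was 2.04 (FDR = 0.482 from edgeR), and without the 2 libraries below the read limit 2.64 (FDR = 0.525 from edgeR).

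Rbl1 (ENSMUSG00000027641, chromosome 2, 157145893 to 157204534), the p107 gene whose promoter holds the E2F motif shown above, had fold changes of the opposite sign. Its level was 97.5, 79.3, 66.2 and 111 CPM in endosteal WT libraries and 84.2, 130, 231 and 81.6 CPM in central WT libraries. Libraries labelled Gfra2-/- had 61.6, 95.2, 55.9 and 21.2 CPM in endosteal HSCs and 48.9, 45.9 and 55.9 CPM in central HSCs. All 3 central libraries labelled Gfra2-/- lay below all 4 central WT libraries, and the endosteal groups overlapped. In central HSCs the log2 fold change was -1.41 (SE 0.55, FDR = 0.487 from edgeR, unadjusted p = 0.0247), in endosteal HSCs -0.60 (SE 0.47, FDR = 0.851 from edgeR; -0.33 without library D labelled Gfra2-/-), and over both compartments -0.96 (SE 0.36, FDR = 0.265 from edgeR, unadjusted p = 0.0154). Without the 2 libraries below the read limit the central value was -1.12, with an unadjusted p from edgeR of 0.0663. DESeq2 called Rbl1 lower over both compartments (log2 fold change -1.004, FDR = 0.0769 from DESeq2). Without the 4 libraries rich in lymphoid markers it was -0.64 (FDR = 0.600 from edgeR), and without endosteal libraries B and D labelled Gfra2-/- it was -0.998 (FDR = 0.296 from edgeR). Spike-in size factors raised the median of all genes in the central comparison to 1.75 on the log2 scale. They turned the central value of Rbl1 to 0.82, below that median, and left Rbl2 above it at 5.17.

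Since the fold changes of Rbl1 and Rbl2 had opposite signs, their ratio within each library, which no scaling between libraries can change, was also taken. It was chosen after their values were seen and is a description without a test. Rbl2 reads per Rbl1 read numbered 0.558, 1.32, 1.26 and 0.419 in endosteal WT libraries, and 0.645, 0.267, 0.122 and 0.0950 in central WT libraries. In libraries labelled Gfra2-/- the ratio was 1.30, 0.964, 2.07 and 9.14 in endosteal HSCs, and 2.58, 2.34 and 3.17 in central HSCs. It exceeded 1 in 2 of 8 WT libraries and in 6 of 7 libraries labelled Gfra2-/-. The highest ratio, 9.14, came from the library with the highest lymphoid sum, and the next-highest from central library C, which had the second-highest sum. The lowest ratio, 0.0950, came from central WT library D, which was also above 100 CPM of lymphoid markers. Across the 15 libraries, log2(CPM + 1) of the pair had a Pearson's r of -0.65, the strongest among the 28 pairs of members; all points share the scaling to a library total and the group differences above.

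**Figure D2:**
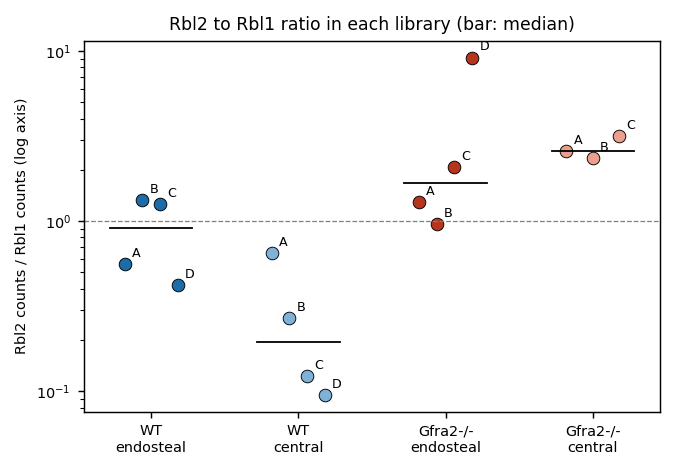
Rbl2 counts divided by Rbl1 counts in each library, on a log axis, with libraries lettered and the group median as a bar. The dashed line marks equal counts, which 2 of 8 WT and 6 of 7 libraries labelled Gfra2-/- exceed.

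The remaining pocket protein, Rb1 (ENSMUSG00000022105, chromosome 14, 73183673 to 73325822), showed no such gap between the genotypes. It had 14.4, 15.4, 59.5 and 21.7 CPM in endosteal WT libraries and 24.4, 62.2, 4.02 and 27.0 CPM in central WT libraries. Libraries labelled Gfra2-/- had 42.7, 18.8, 42.9 and 12 CPM in endosteal HSCs and 44.2, 47.5 and 68.3 CPM in central HSCs. Within the Gfra2-/- label all endosteal libraries were below all central ones, by a narrow margin, with a log2 fold change of -0.88 (SE 0.60, FDR = 0.999 from edgeR). Central HSCs differed between the genotypes by 0.82 (SE 0.86, FDR = 0.861 from edgeR), with overlapping libraries. Rcbtb2 and Lpar6 overlap this locus on the other strand, so a part of its reads may be theirs.

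Cdkn1a (ENSMUSG00000023067, chromosome 17, 29090976 to 29100727), whose product p21 arrests cells downstream of p53, was detected in few libraries. All 4 endosteal WT libraries had 0 counts, and central WT libraries had 0, 0, 16 and 0 counts. Endosteal libraries labelled Gfra2-/- had 60, 0, 0 and 86 counts, and central ones 0, 117 and 18. Counts were thus present in 1 of 8 WT and 4 of 7 libraries labelled Gfra2-/-. In the endosteal group labelled Gfra2-/- the pooled level of 2.67 CPM was at least 37.7-fold higher than the 0.0709 CPM that 3 counts over the endosteal WT group would give, and it rested on 2 of 4 libraries. In central WT libraries 3 counts alone correspond to between 0.933 and 4.02 CPM per library. A level of 2.31 CPM, as in central library C labelled Gfra2-/-, would lie below 3 counts in 2 of them, A and C. It could still give a count above 0 there, so it cannot be called undetectable. The single central WT library with counts, C, was the shallowest of all, and its 16 counts correspond to 21.5 CPM, the highest level of the series. Filtering removed Cdkn1a from 3 of the 4 comparisons of pairs of groups, and over both compartments the unadjusted p for the genotype was 0.191 (FDR = 0.648 from edgeR). Leaving out 1 library at a time moved that log2 fold change between 2.87 and 8.01. The unadjusted p from edgeR then lay between 0.00622 and 0.345, and the FDR between 0.228 and 0.804.

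Libraries with Cdkn1a counts were also those with lymphoid markers. The lymphoid sum was 21.6 to 2061 CPM in the 5 libraries with Cdkn1a counts, and at most 7.07 CPM in 9 of the 10 without, the exception being central WT library D at 153 CPM. Pou2af1, a coactivator of B cells, was 1 of the 3 genes whose log2(CPM + 1) was most like that of Cdkn1a over the 15 libraries (Pearson's r = 0.85), beside Spats2 (0.88) and Nedd9 (0.83), and most of these points are at 0. The part of lymphoid cells in the Cdkn1a counts was not tested.

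**Figure D3:**
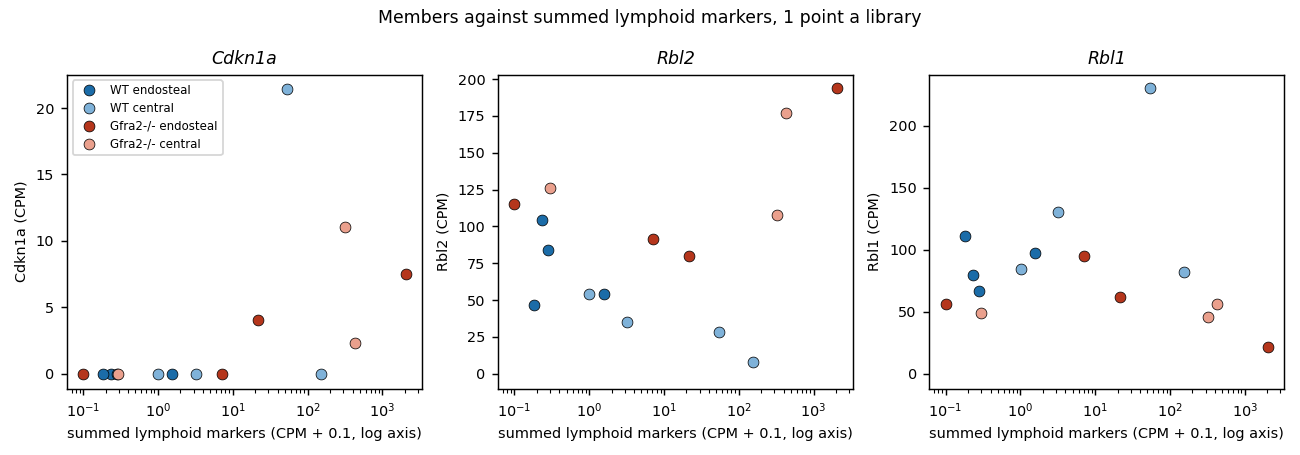
Cdkn1a, Rbl2 and Rbl1 (vertical axes, CPM) against the sum of 5 lymphoid markers (horizontal log axis, CPM + 0.1), with 1 point a library coloured by group. The 5 libraries with Cdkn1a lie at or above 21.6 CPM of lymphoid markers, and the 2 libraries highest in Rbl2 have the 2 highest lymphoid sums. The library lowest in Rbl2, central WT library D, has a lymphoid sum of 153 CPM.

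Cdkn1b (ENSMUSG00000003031, chromosome 6, 134920401 to 134925513), which encodes p27, had group means between 23.8 and 30.2 CPM. It had 63.6, 14.3, 11.0 and 30.0 CPM in endosteal WT libraries and 20.8, 14.0, 33.5 and 27.0 CPM in central WT libraries. Libraries labelled Gfra2-/- had 34.4, 45.5, 22.0 and 14.0 CPM in endosteal HSCs and 22.0, 41.6 and 26.8 CPM in central HSCs. The 4 groups overlapped throughout, and the 4 log2 fold changes between pairs of groups lay between -0.06 and 0.32, with standard errors from 0.63 to 0.85.

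Cdkn1c (ENSMUSG00000037664, chromosome 7, 143458339 to 143461050) varied more between libraries of a group than between groups. Endosteal WT libraries had 1.22, 41.7, 21.4 and 5.48 CPM and central WT libraries 151, 8.39, 63.0 and 60.0 CPM. Libraries labelled Gfra2-/- had 46.1, 15.8, 14.1 and 81.3 CPM in endosteal HSCs and 18.2, 24.7 and 78.6 CPM in central HSCs. Of the 4 central WT libraries 3 lay above all 4 endosteal WT libraries. The means were 70.6 ± 59.3 and 17.4 ± 18.4 CPM (SD, n = 4 each), and the log2 fold change of -2.04 (SE 1.06) had an FDR of 0.641 from edgeR (unadjusted p = 0.0753). Leaving out 1 library at a time moved this value between -2.92 and -1.34, without endosteal library B and without central library A, and the unadjusted p from edgeR between 0.0303 and 0.269. DESeq2 gave -2.17 (unadjusted p = 0.0226, FDR = 0.279 from DESeq2). Over all alternative fits this value lay between -2.92 and -0.886. The central levels of 151 and 63.0 CPM came from libraries A and C, the shallowest of the series. Within the Gfra2-/- label the same contrast was -0.04 (SE 0.81), and the difference between the 2 contrasts was 1.97 (SE 1.44, FDR = 0.813 from edgeR).

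Of the INK4 genes, Cdkn2d (ENSMUSG00000096472, chromosome 9, 21288410 to 21291407) was the higher and Cdkn2c (ENSMUSG00000028551, chromosome 4, 109660876 to 109667189) the lower in every group mean per kilobase. Cdkn2d had 22.4, 30.0, 92.7 and 69.0 CPM in endosteal WT libraries and 0, 17.1, 95.2 and 34.7 CPM in central WT libraries. Libraries labelled Gfra2-/- had 37.4, 142, 31.0 and 106 CPM in endosteal HSCs and 55.7, 43.3 and 59.2 CPM in central HSCs. The 0 belongs to central WT library A, where 3 counts would be 2.72 CPM, while the median of this gene over the 15 libraries was 43.3 CPM. For Cdkn2c the endosteal WT libraries had 24.4, 0.400, 6.63 and 19.8 CPM and the central ones 3.62, 4.35, 5.36 and 22.2 CPM. Libraries labelled Gfra2-/- had 11.3, 4.14, 0.347 and 9.99 CPM in endosteal HSCs and 12.9, 7.28 and 28.4 CPM in central HSCs. Groups overlapped for both genes in each comparison. The largest contrast was that of Cdkn2c between endosteal and central HSCs labelled Gfra2-/-, a log2 fold change of -1.33 (SE 1.18, FDR = 0.999 from edgeR). The other INK4 genes Cdkn2a and Cdkn2b, which encode p16 and p15, had 0 counts in all 15 libraries.

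**Figure D4:**
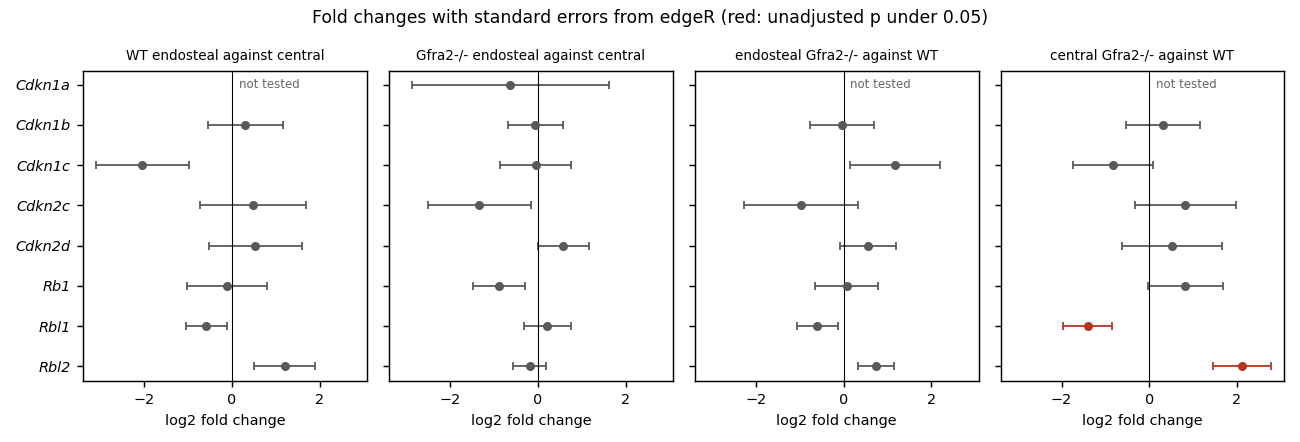
log2 fold change of each member from edgeR (horizontal axis) in 4 comparisons, with the standard error as a whisker, and in red where the unadjusted p was under 0.05. Only Rbl1 and Rbl2 in central HSCs reach that level, in opposite directions, and Cdkn1a was not tested in 3 comparisons.

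None of the members tested passed a 10% FDR with edgeR in the 7 comparisons (0 of 8), against 0.0% of all genes tested in 4 of them, 0.051% between the genotypes in central HSCs, 0.0259% between the compartments over both genotypes and 0.804% between the genotypes over both compartments. DESeq2 called the 3 values given above, 1 of 7 members in central HSCs (background 3.15% of all genes tested) and 2 of 8 over both compartments (background 5.97%). It called 0 members in the other 5 comparisons, with backgrounds of 1.93% between WT compartments, 1.13% between Gfra2-/- compartments, 1.02% between endosteal genotypes, 2.29% between compartments over both genotypes and 1.14% for the interaction. In central HSCs, 1 of 7 members tested was higher in libraries labelled Gfra2-/- at an unadjusted p under 0.05 (background 4.6% of 11772 genes) and 1 of 7 lower (background 4.14%). Rbl2 and Rbl1, in this order, were also those without overlap between groups, 1 higher (background 7.99%) and 1 lower (background 4.44%). Over both compartments 1 of 8 members was higher (background 6.54% of 15416 genes) and 1 of 8 lower (background 5.38%) at that level, and 0 of 8 had groups without overlap (background 0.324%).

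With so few members, nothing is read from counts of 0 or 1 against these backgrounds. In endosteal HSCs 0 of 7 members differed between the genotypes at an unadjusted p under 0.05 (background 6.69%), and 0 of 7 had groups without overlap (background 6.24%). Between endosteal and central WT HSCs the counts were also 0 of 7, with backgrounds of 7.89% and 6.36%. Within the Gfra2-/- label 0 of 8 reached that p (background 4.79%), while Rb1 alone was lower without overlap (1 of 8, background 3.67%). Between the compartments over both genotypes 0 of 8 members reached that p (background 8.71%) or lacked overlap (background 0.123%). The interaction of genotype and compartment had 0 of 8 members at that p (background 6.97%), and its smallest p among members with reads in every group was that of Rbl2, with a difference of -1.41 (SE 0.75, unadjusted p = 0.0763, FDR = 0.734 from edgeR). The Rbl2 difference between genotypes was thus not shown to differ between compartments.

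The partners and targets of these proteins were read from lists compiled by hand, and 0 of their genes passed a 10% FDR with edgeR in any of the 7 comparisons. DESeq2 called 3 of them between endosteal and central HSCs labelled Gfra2-/- (Rrm1, Rrm2 and Tyms) and 1 between the compartments over both genotypes (Tyms), all higher in endosteal HSCs, against 1.13% and 2.29% of all genes. Among 18 genes that E2F factors or the DREAM complex control, 6 were higher and 12 lower in central libraries labelled Gfra2-/- than in WT ones, with a median log2 fold change of -0.27, against 0.03 over all genes tested, and 3 were lower at an unadjusted p under 0.05 (background 4.14%). Without the libraries rich in lymphoid markers, which leaves 1 central library labelled Gfra2-/-, 7 were higher and 11 lower, with a median of -0.42 against -0.04 and 0 at that p. Top2a, a topoisomerase of dividing cells, had a log2 fold change of -1.27 (SE 0.49, FDR = 0.480 from edgeR), and Mki67, the gene of the proliferation marker Ki-67, one of -1.88 (SE 0.83, FDR = 0.551 from edgeR). In endosteal HSCs 11 of the 18 were higher and 7 lower in libraries labelled Gfra2-/-, with a median of 0.11 against 0.03, and 1 was higher at that p (background 3.18%), the mitotic cyclin Ccnb1 (3.39, SE 1.40, FDR = 0.737 from edgeR). Without library D labelled Gfra2-/-, which is rich in lymphoid markers, this turned to 8 higher and 10 lower, with a median of -0.14 against -0.02. Between endosteal and central HSCs labelled Gfra2-/-, 15 were higher and 3 lower in endosteal HSCs, with a median of 0.53 against 0.03. There 3 were higher at that p (background 2.74%), among them the ribonucleotide reductase subunits Rrm1 (1.04, SE 0.29, FDR = 0.896 from edgeR) and Rrm2 (1.64, SE 0.50, FDR = 0.896 from edgeR). Without the libraries rich in lymphoid markers, again with 1 central library left, 14 were higher and 4 lower, with a median of 0.59 against 0.20 and 0 at that p. In WT HSCs 12 were higher and 6 lower in endosteal HSCs, with a median of 0.04 against 0.03, and 2 were lower at that p (background 3.46%), Ccnb1 (-3.11, SE 1.24, FDR = 0.584 from edgeR) and Top2a (-1.39, SE 0.59, FDR = 0.594 from edgeR). Without central WT library D 11 were higher and 7 lower, with a median of 0.32 against 0.07, and 0 were at that p, and with DESeq2 8 were higher and 10 lower, with a median of -0.08, the same as over all genes.

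Of the 10 genes of E2F and DP factors, 3 were higher and 7 lower in central libraries labelled Gfra2-/-, with a median log2 fold change of -0.40 and 0 at an unadjusted p under 0.05 (background 8.73%). The smallest p there was that of E2f4, the E2F partner of p130, at -1.19 (SE 0.65, FDR = 0.648 from edgeR). E2f1, which drives S phase genes, was higher in endosteal than in central WT HSCs at an unadjusted p of 0.0359 (log2 fold change 1.93, SE 0.83, FDR = 0.594 from edgeR; background 4.43%). Without central WT library D it was at 1.85, with an unadjusted p from edgeR of 0.0733. Of the 5 genes of the MuvB core, 2 were higher and 3 lower in central libraries labelled Gfra2-/-, with a median of -0.14. Between endosteal and central WT HSCs 1 was higher and 4 lower in endosteal HSCs, with a median of -0.78. In each of these comparisons 1 was higher at an unadjusted p under 0.05 (backgrounds 4.6% and 4.43%). Lin37 had log2 fold changes of 2.83 (SE 1.12, FDR = 0.502 from edgeR) between the genotypes in central HSCs and 2.58 (SE 1.06, FDR = 0.586 from edgeR) between the WT compartments. These 2 comparisons share the shallow central WT libraries, and without the libraries rich in lymphoid markers the values were 2.96 (SE 2.03) and 3.26 (SE 1.19). Between the genotypes in endosteal HSCs 4 of the 5 were higher and 1 lower, with a median of 0.46, and 1 was higher at that p (background 3.18%). Lin54, the DNA-binding subunit, was at 2.85 there (SE 0.99, FDR = 0.737 from edgeR), and at -2.29 (SE 1.27) between endosteal and central WT HSCs.

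Of 8 G1 cyclins and kinases, 4 were higher and 4 lower in endosteal than in central WT HSCs. With edgeR 1 was higher at an unadjusted p under 0.05 (background 4.43%), Cdk4, a kinase that INK4 proteins inhibit. Its log2 fold change was 0.94 (SE 0.39, FDR = 0.594 from edgeR), and 0.94 without central library D (SE 0.45, unadjusted p = 0.0611 from edgeR). With DESeq2 0 of the 8 were higher and 1 lower at that level, against 576 higher and 717 lower of all 11181 genes tested. With edgeR 0 were at that level between the genotypes within a compartment (backgrounds 6.69% in endosteal and 8.73% in central HSCs). The 4 subunits of the SCF-Skp2 ligase, which marks p27 for degradation, had 0 genes at that level in the 4 comparisons of pairs of groups. Backgrounds there lay between 4.79% and 8.73%. Of 9 genes of p53 and its other targets, 1 of 8 tested was higher at that level in endosteal libraries labelled Gfra2-/- (background 3.18%). This was Trp53inp1 (2.04, SE 0.89, FDR = 0.737 from edgeR, unadjusted p = 0.0440), at 1.82 with an unadjusted p from edgeR of 0.0937 without library D. In central HSCs 0 of 7 tested differed at that level (background 8.73%).

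For the other members, the 3 genes most like each over the 15 libraries, by Pearson's r of log2(CPM + 1), are a description of these libraries, whose points share depth and scaling. Rbl2 was most like Rnase6 (0.92), Cd2ap (0.91) and Lta4h (0.91), and Rbl1 most like Vcp (0.90), Sox12 (0.89) and Uck2 (0.87). Cdkn2d was most like Ncln (0.93), the replication helicase gene Mcm4 (0.93) and Ptp4a3 (0.91), and Cdkn2c most like Ift80 (0.90), Map3k20 (0.87) and Pwp2 (0.84). Cdkn1c was most like Hif3a (0.86), Lpcat1 (0.86) and Atpaf1 (0.85), Cdkn1b most like Igbp1, Lyplal1 and Snhg6 (0.80 to 0.81), and Rb1 most like Sars2 (0.88), Ripply3 (0.85) and Erbin (0.84).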

How the data were processed

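The authors aligned single-end reads to GRCm38 (mm10) with GSNAP, counted them per gene with htseq-count (0.5.3p3) without regard to strand, and deposited raw counts, which include 92 spike-in RNAs and 5 summary rows that were left out of totals and tests. Smart-seq2 reads have no molecular identifiers, so depth covers counting error only. Left unused was 1 further column of per-sample counts, which no source ties to a group. Column names are library codes, which were assigned to groups with the study's list of libraries, since the labels do not hold the codes. Each comparison used edgeR 4.0.16 (R 4.3.3): filterByExpr, TMM, the quasi-likelihood test, Benjamini-Hochberg adjustment over all genes tested and an FDR of 0.1. Only the libraries compared entered a fit, and both-compartment, both-genotype and interaction fits used all 15. DESeq2 1.42.0 was an alternative. Standard errors were taken from the fold change and F statistic. The script was tested on counts simulated with less spread than was estimated for these libraries, so that test does not measure its power here. Lengths and positions came from GENCODE. Named were the 8 members, at most 2 genes with the smallest p of each list in each comparison of 2 groups, and the 3 most correlated genes of each member. The members and lists were chosen with earlier results of these data known. 1 lymphoid marker is not reported here and was left out of the summed level.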

Additional observations from a re-analysis of the deposited data

Results flagged for a closer look

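Cdkn1a in central WT library C, at 21.5 CPM from 16 counts, lay far from the other 3 central WT libraries, which had 0 counts. With the other 3 at exactly 0, Dixon's test marks any value above 0, so its usual rate of about 1 in 20 groups by chance does not apply. No other value was marked among the 23 groups of 4 libraries examined on log2(CPM + 1). This library was the shallowest of the series, below 1500000 gene-assigned reads, and had 53.6 CPM of lymphoid markers. The part of either in the value was not tested.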

How the results depend on the processing

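No paired analysis was possible because column names hold library codes without replicate numbers. With edgeR 0 members passed in each comparison, and this was so under every alternative run except 3: DESeq2 called 1 member in central HSCs between the genotypes (Rbl2) and 2 over both compartments (Rbl1 and Rbl2), and at least 10 counts in every library gave 1 over both compartments (Rbl2). Of 1130 recomputed fold changes of members, 1046 kept their direction and side of the threshold, 4 passed it and 80 changed sign, all of the last from values that had not passed. Where the sign changed, the cause was not tested. Over all genes edgeR called 0, 0, 0, 6, 4, 124 and 0 genes, in the order WT compartments, Gfra2-/- compartments, endosteal genotypes, central genotypes, both-genotype compartments, both-compartment genotypes and interaction, and DESeq2 216, 156, 132, 371, 353, 920 and 176. Levels without TMM factors moved by less than 1 SD in all 32 group means, and with the length of the longest transcript 6 of 32 means per kilobase moved by more. All of these 6 were means of Rb1, Rbl1 or Rbl2.

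Between endosteal and central WT HSCs, the log2 fold change of Cdkn2c turned to -0.0676 with libraries past the quality cut-offs, applied to gene-assigned reads. With spike-in size factors the log2 fold change turned to 1.34 for Rb1 and 1.57 for Rbl1. Within the Gfra2-/- label it turned to 0.27 for Cdkn1a and -0.90 for Rbl1 with spike-in size factors. In the same comparison it turned to 0.11 for Cdkn1b and 0.25 for Cdkn1c with libraries of more spike-in reads. It also turned there to -0.62 for Cdkn2d without the 2 libraries above 5 Gfra2 counts. Between the genotypes in endosteal HSCs it turned for Cdkn1b to 0.0530 with at least 10 counts and 0.21 with more spike-in reads, for Cdkn2d to -0.65 without those 2 libraries, and for Rb1 to -0.61 with spike-in size factors and -0.0136 with thinned counts. In central HSCs it turned for Cdkn1c to 1.59 with spike-in size factors and 0.20 past the quality cut-offs, and for Rbl1 to 0.82 with spike-in size factors. Between the compartments over both genotypes it turned for Cdkn2c to 0.24 with more spike-in reads, and for Rbl1 to 0.40 with spike-in size factors and 0.0089 past the quality cut-offs. Between the genotypes over both compartments it turned for Cdkn1c to -0.59 with more spike-in reads and -0.0226 without those 2 libraries, and for Cdkn2c to 0.23 with spike-in size factors, 0.0308 with more spike-in reads and 0.10 without those 2 libraries. The interaction turned for Cdkn1a to -0.64 past the quality cut-offs, for Rbl1 to -2.48 with spike-in size factors, and for Cdkn2d to -2.26 with spike-in size factors, -0.0137 without a filter, -0.47 past the quality cut-offs and -1.23 without those 2 libraries.

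Leaving out the 4 libraries above 100 CPM of lymphoid markers, chosen after seeing the data, leaves 1 central library labelled Gfra2-/-, which is assumed to vary like the other groups and has 0 Cdkn1a counts, so that the 7.32 fitted for Cdkn1a within that label is no measure of size. The other sign changes were 0.65 for Cdkn1b and 0.50 for Cdkn1c within the Gfra2-/- label, 0.19 and -0.0932 for Cdkn1b between the genotypes in endosteal and central HSCs, 0.50 for Cdkn2c between the compartments over both genotypes, -0.0346 for Cdkn1c between the genotypes over both compartments, and interactions of 0.19 for Cdkn1b and -0.27 for Cdkn2d.

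Leaving out each library in turn changed the sign of 18 of 53 fold changes in at least 1 fit. The ranges between endosteal and central WT HSCs were -0.42 to 0.58 for Cdkn1b, -0.0540 to 1.47 for Cdkn2c and -0.80 to 0.55 for Rb1. Within the Gfra2-/- label they were -1.73 to 1.34 for Cdkn1a, -0.36 to 0.25 for Cdkn1b, -0.68 to 0.87 for Cdkn1c, -0.12 to 0.49 for Rbl1 and -0.52 to 0.0386 for Rbl2. Between the genotypes in endosteal HSCs they were -0.34 to 0.64 for Cdkn1b and -0.19 to 0.77 for Rb1. Over both genotypes the compartments gave -0.21 to 0.33 for Cdkn1b, -0.67 to 0.0651 for Cdkn2c and -0.38 to 0.0485 for Rbl1, and over both compartments the genotypes gave -0.11 to 0.65 for Cdkn1c and -0.48 to 0.18 for Cdkn2c. Interactions ranged from -0.58 to 9.85 for Cdkn1a, which is at 0 in 1 group, -0.68 to 0.31 for Cdkn1b and -1.02 to 0.42 for Cdkn2d. For Rbl2 the log2 fold change stayed between 1.77 and 2.53 in central HSCs and between 1.18 and 1.54 over both compartments (FDR = 0.129 to 0.260 from edgeR), and for Rbl1 between -1.60 and -0.999 and between -1.16 and -0.75. In endosteal HSCs these ranges were 0.39 to 0.96 for Rbl2 and -0.95 to -0.33 for Rbl1.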
